A study of Homo sapiens with 6 samples.

Results

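The genes described here are 10 transcription factors and coactivators that set the identity of B cells and plasma cells. They are IRF4, PRDM1, XBP1, POU2AF1, POU2F2, PAX5, BCL6, BACH2, SPIB and EBF1. A transcript was taken as belonging to a member where the authors' deposited table pairs it with the member's symbol, and transcript TPM (transcripts per 1000000, an abundance corrected for length) was summed per gene. This gave 103 transcripts in 10 of the 63677 genes. Of the 10 members, 7 reached the mean of 1 TPM needed for a test, among 22651 genes tested in all, and the other 3 are given by their values.

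The libraries were made from KMS27, an established human line of malignant plasma cells from multiple myeloma. Per the labels' treatment field, 3 libraries are wild type and the other 3 overexpress HA-TAZ, the coactivator TAZ (gene WWTR1) with an HA peptide tag. The wild type titles carry HA as well, and the treatment label gives no construct for those cells. The control columns are named scr, a name found in no label, and were assigned to wild type by elimination. They are called control a, b and c here, and the treated libraries HA-TAZ 1, 2 and 3. Values are listed for HA-TAZ 1, 2 and 3 and then for control a, b and c. Gene coordinates are those of GENCODE 29 on GRCh38, which is not the build the submitters name. All libraries are of 1 cell line. The labels' protocols describe triplicate libraries without saying that they came from separate cultures, so the p-values measure the spread between these libraries, which may be technical.

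As background, B cells and plasma cells hold opposed transcription programmes. PAX5, EBF1, BCL6, BACH2 and SPIB maintain B cell or germinal centre identity, and BCL6 and BACH2 repress PRDM1. In antibody-secreting plasma cells, IRF4 and PRDM1 (Blimp-1) shut that programme down and XBP1 drives the secretory apparatus. Myeloma cells depend on IRF4 for survival. POU2AF1 (OCA-B) is recruited to octamer sites in immunoglobulin and other B lineage promoters by octamer factors such as POU2F2 (Oct-2).

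WWTR1 (ENSG00000018408) checked the labels, with 293 to 306 TPM in HA-TAZ libraries and 1.69 to 2.69 TPM in controls. TPM are shares of a library and carry no depth, so the depth of each library was unknown. Summed over transcripts, the geometric means of the authors' deposited table come to 52795484 estimated counts for a typical library. TPM was divided by a median-of-ratios factor per library, which gives the scaled TPM used below. Over all tested genes the median log2 fold change was −0.03 on this scale and −0.27 with TPM as deposited. A fold change is HA-TAZ over control on the scale of log2(scaled TPM + 1), which understates the change of low genes. A gene was called when the Benjamini-Hochberg adjusted p-value of limma was under 0.05. Markers of other cell types were low apart from HBA2. The summed level of 8 T and NK cell markers was 4.20 to 5.34 TPM in HA-TAZ libraries and 6.24 to 6.46 TPM in controls, with 5 of them under 1 TPM in every library. The 8 myeloid markers summed to 1.74 to 1.93 and 1.91 to 2.25 TPM, with ELANE, S100A8 and S100A9 at 0. The 5 erythroid markers summed to 8.74 to 15.1 and 8.34 to 21.2 TPM. Most of this was HBA2, at means of 10.5 TPM with HA-TAZ and 12.5 TPM in controls, and 4 were under 1 TPM in every library. The 11 stromal, endothelial and epithelial markers summed to 7.34 to 9.20 TPM and 10.3 to 13.7 TPM. Of these 32 markers 9 were high enough to test, and limma called 0 of the 9, with 0 at p under 0.05 before adjustment.

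In control and HA-TAZ libraries alike the plasma cell factors were abundant and the B cell factors sparse, apart from SPIB and BACH2. IRF4 was the highest member at a mean of 203.5 TPM over the 6 libraries, followed by XBP1 at 148 TPM, PRDM1 at 97.3 TPM, POU2AF1 at 43.0 TPM, SPIB at 19.4 TPM, BACH2 at 9.79 TPM and POU2F2 at 2.58 TPM. BCL6 had a mean of 0.431 TPM, EBF1 of 0.200 TPM and PAX5 of 0.0215 TPM. In this order the ranges of IRF4 and XBP1 over the 6 libraries overlapped, as did those of BCL6 and EBF1, and all other neighbours were separate. Among the tested genes, IRF4 lay at the percentile 98.4 of mean TPM, BACH2 at 59.6 and POU2F2 at 27.5.

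**Figure D1:**
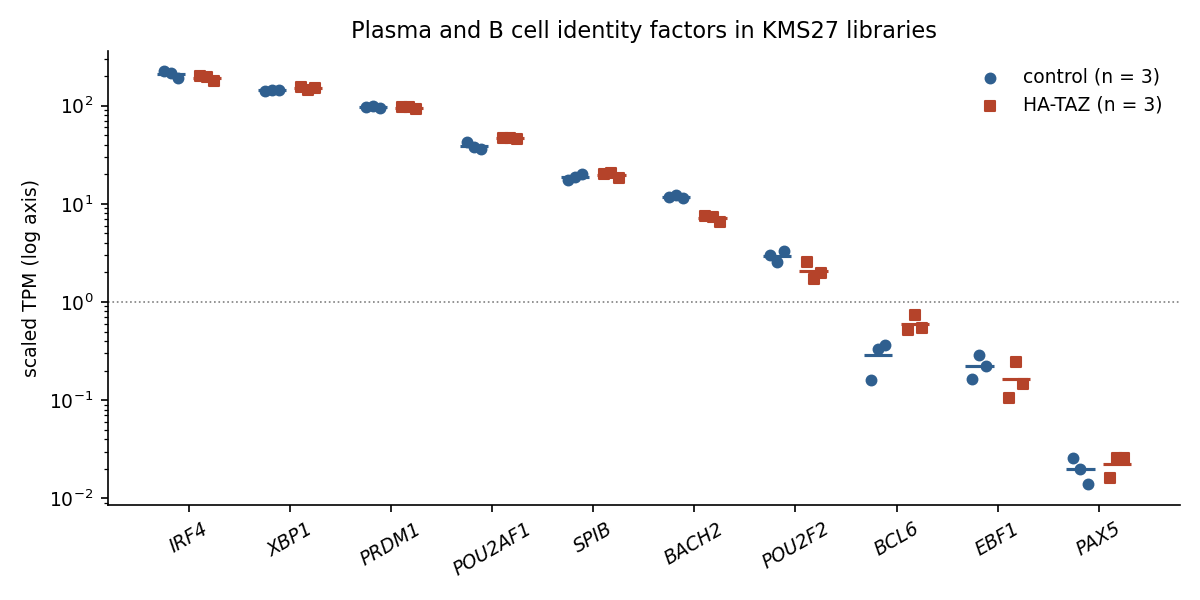
Scaled TPM (log axis) of the 10 members in each library, in order of mean level. Circles are control libraries, squares are HA-TAZ libraries, short lines are group means, and the dotted line marks 1. The groups stand apart for BACH2, which runs from 6.50 to 7.56 in HA-TAZ and from 11.4 to 12.2 in control libraries, and for BCL6 at a level under 1, while IRF4, PRDM1 and SPIB overlap.

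Of the 7 tested members, limma called 1, BACH2, which fell with HA-TAZ. An unadjusted p-value under 0.05 was found for 3 of them. Over all tested genes 7.29% were called, 2.63% as lower and 4.67% as higher, and 30.7% had an unadjusted p-value under 0.05, so 1 call among 7 genes is no result about the members as a group. In scaled TPM, BACH2 was lower and XBP1 and POU2AF1 were higher without overlap between the groups, and the other 4 overlapped. For comparison, 38.5% of all tested genes had groups that did not overlap, 18.3% lower and 20.2% higher. With TPM as deposited, 6 of the 7 were lower without overlap, and none was higher. Over all tested genes 48% did not overlap on that scale, 43.6% lower and 4.41% higher, and 14.7% were called, against 3 of the 7 members. The median log2 fold change of the 7 was −0.02.

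IRF4 (ENSG00000137265, chr6:391739-411447, plus strand) encodes the interferon regulatory factor on which plasma cells and myeloma cells rely. Its level was 172, 190.3 and 157 TPM with HA-TAZ and 269.5, 232 and 200.3 TPM in controls. All HA-TAZ values were below all controls before rescaling. In scaled TPM the values were 199, 197 and 176 against 223, 213 and 189, and the groups overlapped because control c lay below HA-TAZ 1 and 2. The log2 fold change was −0.13 (SE 0.08; limma with Benjamini-Hochberg, adjusted p = 0.334). In bulk libraries such as these, fewer cells of a type and less RNA per cell cannot be told apart.

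PRDM1 (ENSG00000057657, chr6:106086320-106109939, plus strand) encodes Blimp-1, the repressor that ends the B cell programme. Its level was 84.4, 94.3 and 81.2 TPM with HA-TAZ and 116, 107 and 100.1 TPM in controls. Rescaling brought the groups together, at 97.5, 97.6 and 91.3 against 96.3, 98.4 and 94.7 scaled TPM. The log2 fold change was −0.02 (SE 0.04; limma with Benjamini-Hochberg, adjusted p = 0.834). The span of ATG5, on the opposite strand, reaches an exon of PRDM1, and ATG5 had a mean of 16.0 TPM. Whether exons of both genes overlap was not examined. The kit marks strand per the labels, but no source used here says that strand entered the quantification, so reads of the pair may be mixed.

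PRDM1 has a start that gives the full protein and a start inside the gene that gives a shorter protein lacking part of the PR domain. PRDM1-201 begins near the inner start and holds 691 codons, while PRDM1-203 and PRDM1-202 begin at the outer start and hold 825 and 789 codons. The 100 bases before each start are shown because the share of PRDM1-201 was lower in HA-TAZ libraries. PRDM1-206, which retains an intron, and PRDM1-205 also begin at or near the inner start. Their shares of the gene's TPM overlapped between the groups, with means of 14.8% against 16.0% and of 8.93% against 7.55%. A lower use of the inner start as a whole was thus not shown. Capitals mark a match to an NF-kB motif, GGGA followed by any 4 bases and CC, and both stretches are from RefSeq on GRCh38.p14, plus strand.
PRDM1 before the outer start, chr6:106086220-106086319: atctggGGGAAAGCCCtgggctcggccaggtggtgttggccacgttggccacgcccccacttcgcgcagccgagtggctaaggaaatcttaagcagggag
PRDM1 before the inner start, chr6:106098825-106098924: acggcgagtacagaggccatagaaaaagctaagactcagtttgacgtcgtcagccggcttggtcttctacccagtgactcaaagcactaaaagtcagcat

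PRDM1-201 took 6.62, 4.15 and 5.46% of the TPM of PRDM1-201, PRDM1-202 and PRDM1-203 together in HA-TAZ libraries. In controls this share was 11.2, 8.73 and 7.71%. Every HA-TAZ library was below every control, with means of 5.41 ± 1.24% and 9.22 ± 1.80% (SD, n = 3 each; exact two-sided permutation p = 0.1, the smallest this design allows). Of the TPM of the whole gene, PRDM1-201 took 2.96 ± 0.699% and 5.23 ± 1.38% (SD, n = 3 each), also lower without overlap. For such shares of a whole gene, 25.6% of all transcripts examined, with a mean of at least 1 TPM, were without overlap in either direction. The log2 fold change of PRDM1-201 itself was −0.65 (SE 0.20; limma with Benjamini-Hochberg, adjusted p = 0.136). That of PRDM1-203, the most abundant form, was 0.00 (SE 0.07; limma with Benjamini-Hochberg, adjusted p = 0.988). The authors' deposited table lists PRDM1-201 at −0.559 in natural log units, with q-value 0.104.

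XBP1 (ENSG00000100219, chr22:28794555-28800597, minus strand) encodes the factor that expands the endoplasmic reticulum of secretory cells. Its level was 132, 140.2 and 134 TPM with HA-TAZ and 169, 158 and 153 TPM in controls. In scaled TPM the order turned, with 153, 145.03 and 150.1 against 139, 144.93 and 144.8. Every HA-TAZ library was then above every control, but HA-TAZ 2 and control b were almost level. The log2 fold change was 0.06 (SE 0.04; limma with Benjamini-Hochberg, adjusted p = 0.354). With TPM as deposited it was −0.24 and called (limma with Benjamini-Hochberg, adjusted p = 0.0489), so the direction depended on the scaling.

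XBP1 mRNA is spliced in the cytoplasm by the enzyme IRE1 (gene ERN1), which removes a short piece and shifts the reading frame to give the active factor. The annotation holds both forms, and the stretch around the piece is shown because it is all that separates them in this region. It covers chr22:28796102-28796167 on GRCh38, read on the minus strand, with the removed bases in capitals.
XBP1-201, unspliced: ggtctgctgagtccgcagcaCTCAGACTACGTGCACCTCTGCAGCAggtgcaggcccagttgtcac
XBP1-202, spliced: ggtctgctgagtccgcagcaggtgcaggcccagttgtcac

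The piece has 26 bases, at chr22:28796122-28796147, which is not a multiple of 3. XBP1-201 codes for 261 codons and XBP1-202 for 376. XBP1-202 took 18.3, 16.4 and 15.6% of the TPM of these 2 transcripts in HA-TAZ libraries and 28.4, 27.2 and 17.6% in controls. Control c lay inside the HA-TAZ range, so the groups overlapped. The means were 16.7 ± 1.38% and 24.4 ± 5.92% (SD, n = 3 each; exact two-sided permutation p = 0.2). The difference between the means was −7.64 percentage points. With 1 library left out it ran from −11.04, without control c, to −5.65 points. XBP1-202 is annotated without untranslated regions, with 1131 bases against 1850 for XBP1-201, so the share rests on how reads outside the coding part were assigned.

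XBP1-201 was at 97.6, 106 and 100.3 TPM with HA-TAZ, and at 106, 100.5 and 109.6 TPM in controls, with overlap. In scaled TPM its means were 112 ± 2.06 and 94.4 ± 8.36 (SD, n = 3 each), higher without overlap. On that scale the log2 difference was 0.24 (SE 0.08; limma with Benjamini-Hochberg, adjusted p = 0.154), and with TPM as deposited it was −0.06. The authors' deposited table lists XBP1-201 at 0.186 in natural log units (SE 0.0466, q-value 0.00317). XBP1-202 was at 21.8, 20.7 and 18.5 TPM with HA-TAZ, and at 41.8, 37.6 and 23.4 TPM in controls, and its log2 fold change was −0.40 (SE 0.19; limma with Benjamini-Hochberg, adjusted p = 0.258). The q-value of XBP1-202 in the authors' deposited table was 0.444. In scaled TPM and in the authors' deposited table XBP1-201 thus had a positive and XBP1-202 a negative effect, and of the 4 tests only that of XBP1-201 in the authors' deposited table passed.

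POU2AF1 (ENSG00000110777, chr11:111352252-111455630, minus strand), the octamer coactivator, was at 40.7, 45.3 and 40.8 TPM with HA-TAZ, and at 51.9, 41.1 and 38.4 TPM in controls. In scaled TPM these became 46.96, 46.8 and 45.8 against 42.9, 37.7 and 36.3. All HA-TAZ libraries were then above all controls, and control a, the highest control, was the nearest. The log2 fold change was 0.25 (SE 0.07; limma with Benjamini-Hochberg, adjusted p = 0.0779; unadjusted p = 0.0114). Without control a it was 0.32 and called (limma with Benjamini-Hochberg, adjusted p = 0.0444), the only call among the 6 fits without 1 library. In these fits it ran from 0.21 to 0.32, with adjusted p-values up to 0.199 (limma, Benjamini-Hochberg). With TPM as deposited it was −0.04. Its main transcript POU2AF1-201 had a log2 difference of 0.26 and was not called (SE 0.08; limma with Benjamini-Hochberg, adjusted p = 0.127). It stands at 0.205 in natural log units, with q-value 0.00357, in the authors' deposited table.

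POU2F2 (ENSG00000028277, chr19:42086110-42196585, minus strand), the B lineage octamer factor, was at 2.21, 1.65 and 1.75 TPM with HA-TAZ, and at 3.65, 2.76 and 3.47 TPM in controls. In scaled TPM it was at 2.56, 1.70 and 1.97 against 3.02, 2.53 and 3.28, with HA-TAZ 1 just above control b. Its log2 fold change was −0.36 (SE 0.14; limma with Benjamini-Hochberg, adjusted p = 0.153; unadjusted p = 0.0449). With TPM as deposited it was −0.58 and called (limma with Benjamini-Hochberg, adjusted p = 0.0461). The member is spread over 19 transcripts, of which 10 were above 0 and none reached a mean of 1 TPM. These transcripts differed in direction. POU2F2-218, the most abundant, had scaled means of 0.573 with HA-TAZ and 1.28 in controls, lower without overlap. POU2F2-202, a coding form of 463 codons, had 0.417 and 0.260, higher without overlap. In the authors' deposited table their effects were −0.801 and 0.504 in natural log units, with q-values of 0.0733 and 0.111. Their geometric means there were 26.5 and 147 estimated counts.

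BACH2 (ENSG00000112182, chr6:89926529-90296908, minus strand) encodes a repressor that holds B cells back from plasma cell differentiation by repressing PRDM1. Its level was 6.55, 7.13 and 5.78 TPM with HA-TAZ and 14.0, 13.3 and 12.0 TPM in controls. In scaled TPM it was at 7.56, 7.37 and 6.50 against 11.6, 12.2 and 11.4, so the lowest control was well above the highest HA-TAZ library. The scaled means were 7.14 ± 0.567 and 11.7 ± 0.420 (SD, n = 3 each), a ratio of 0.610. Its log2 fold change was −0.64 (SE 0.08; limma with Benjamini-Hochberg, adjusted p = 0.0150), with p = 0.1 by exact two-sided permutation, the least that 3 against 3 can give.

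The fall of BACH2 had the same direction in every other fit run, with a log2 fold change between −0.91 with TPM as deposited and −0.37 over protein-coding transcripts only. The call itself did not hold in every fit without 1 library. It was lost without HA-TAZ 1 (limma with Benjamini-Hochberg, adjusted p = 0.0617), HA-TAZ 2 (0.0663), HA-TAZ 3 (0.0525) or control b (0.0659), and kept without control a (0.0498) or control c (0.0477). The log2 fold change in these 6 fits ran from −0.68 to −0.58.

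The 100 bases before the outermost start of BACH2 are shown because BACH2 is the member that was called. They are from RefSeq on GRCh38.p14, read on the minus strand, and none of the motifs searched lies in them.
BACH2, chr6:90296909-90297008: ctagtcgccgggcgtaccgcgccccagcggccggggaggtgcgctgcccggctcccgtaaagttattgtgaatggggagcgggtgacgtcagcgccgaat

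BACH2-210, the most abundant transcript that codes for the 841-codon protein, was at 2.35, 2.48 and 2.28 TPM with HA-TAZ, and at 3.99, 4.15 and 3.83 TPM in controls. All HA-TAZ values were lower. Its log2 fold change was −0.34 (SE 0.09; limma with Benjamini-Hochberg, adjusted p = 0.111), and the authors' deposited table lists it at −0.293 in natural log units (SE 0.0855, q-value 0.0166). BACH2-208, a transcript without a coding sequence, was at 0.904, 0.476 and 0.318 TPM against 2.32, 1.47 and 1.83 TPM. BACH2-205, also without one, was listed at 0, 1.53 and 0 TPM against 1.03, 2.16 and 2.03 TPM. BACH2 outside protein-coding transcripts was at 3.82, 3.60 and 3.00 scaled TPM with HA-TAZ, and at 6.52, 7.27 and 6.20 in controls, a ratio of means of 0.521. The span of AL121787.1, an antisense gene with a mean of 1.29 TPM, reaches an exon of BACH2. Whether their exons overlap was not examined, and the part of its reads in these values was not tested.

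By profile over the 6 libraries, the genes most like BACH2 among 9050 tested genes with a mean of at least 10 TPM were MAL2 (Pearson r = 0.999) and FBXO11 (r = 0.998). MAL2 was at 14.4 ± 1.28 TPM with HA-TAZ and at 26.7 ± 1.60 TPM without (SD, n = 3 each). FBXO11 was at 28.4 ± 1.96 and 43.0 ± 2.68 TPM (SD, n = 3 each). In all, 141 genes had r of at least 0.95, and with 6 libraries in 2 groups this measure mostly reads the difference between the groups.

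SPIB (ENSG00000269404, chr19:50418938-50431313, plus strand), an Ets family factor of B cells, was at 17.3, 19.8 and 16.5 TPM with HA-TAZ, and at 21.1, 20.3 and 21.3 TPM in controls. In scaled TPM it was at 19.96, 20.4 and 18.5 against 17.4, 18.6 and 20.1, with overlap. Its log2 fold change was 0.07 (SE 0.07; limma with Benjamini-Hochberg, adjusted p = 0.565). Its transcripts differed from each other. SPIB-201, which is protein-coding, was at 6.60, 5.51 and 5.94 TPM with HA-TAZ, and at 5.21, 4.61 and 5.03 TPM in controls. SPIB-203, which retains an intron, was at 3.78, 5.91 and 4.90 TPM against 8.92, 9.30 and 9.68 TPM. The former was above and the latter below every control, with log2 fold changes of 0.49 and −0.57 (limma with Benjamini-Hochberg, adjusted p = 0.0982 and 0.0990). SPIB-207 was at 2.27, 2.17 and 0.430 TPM in HA-TAZ libraries and listed at 0 in all controls. With a mean of 0.813 TPM it was under the filter on level and not tested by limma. Its geometric mean over both groups was 4.18 estimated counts in the authors' deposited table. The controls at 0 lower that mean, so it understates the HA-TAZ libraries, whose single counts are not known. The authors' deposited table gave q-values of 0.00530 for SPIB-201, 0.0994 for SPIB-203 and 4.10e-04 for SPIB-207.

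BCL6 (ENSG00000113916, chr3:187721377-187745727, minus strand), the repressor that defines the germinal centre, was at 0.448, 0.706 and 0.485 TPM with HA-TAZ, and at 0.196, 0.361 and 0.388 TPM in controls. It was higher in every HA-TAZ library, in scaled TPM as well, at 0.517 to 0.730 against 0.162 to 0.367. Of the 24720 genes above 0 and below the filter on level, 13.7% had groups without overlap in scaled TPM and 5.15% were higher. Among tested genes these shares were 38.5% and 20.2%. In the fit without that filter the log2 fold change was 0.31 (SE 0.09), and it was not called (limma with Benjamini-Hochberg, adjusted p = 0.160). For the BCL6 transcripts with statistics in the authors' deposited table, BCL6-205 and BCL6-202, the geometric means were 7.14 and 7.69 estimated counts. Few reads thus stand behind these values.

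EBF1 (ENSG00000164330, chr5:158695916-159099761, minus strand) and PAX5 (ENSG00000196092, chr9:36833275-37034185, minus strand), which commit and hold cells in the B lineage, were near 0. EBF1 was at 0.0911, 0.235 and 0.130 TPM with HA-TAZ, and at 0.199, 0.313 and 0.233 TPM in controls. PAX5 was at 0.0141, 0.0247 and 0.0227 TPM against 0.0308, 0.0215 and 0.0148 TPM. Both overlapped between the groups. From the authors' deposited table, the geometric mean was 24.2 estimated counts for EBF1-201 and 12.1 for PAX5-201, the only transcript of PAX5 above 0. In the fit without a filter on level neither was called, with log2 fold changes of −0.07 (SE 0.06) for EBF1 and 0.00 (SE 0.01) for PAX5 (limma with Benjamini-Hochberg, adjusted p = 0.587 and 0.889).

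**Figure D2:**
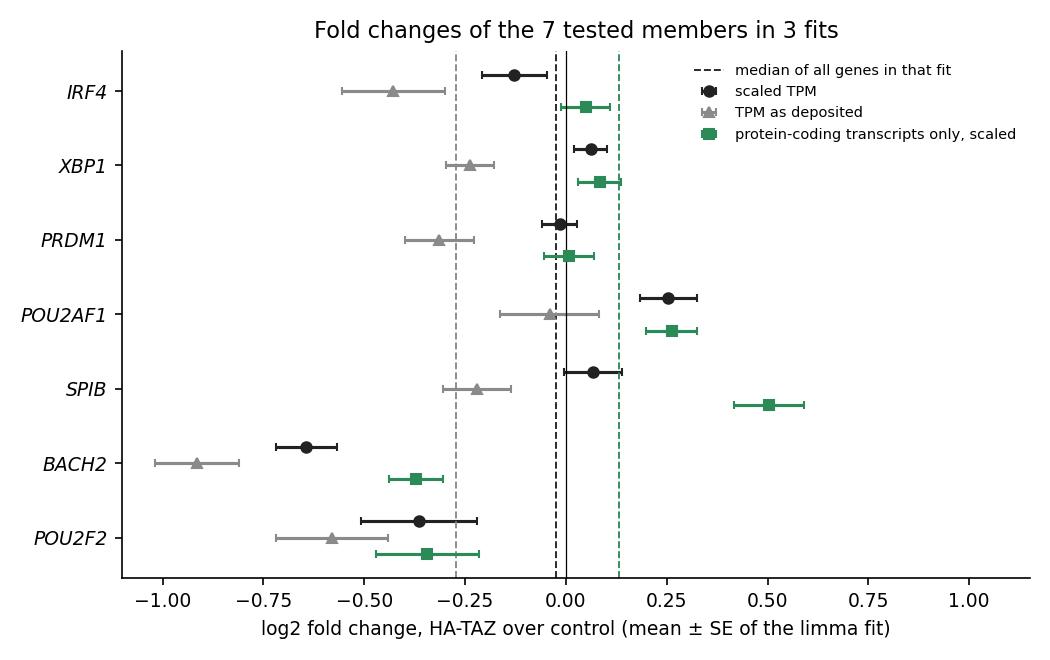
Log2 fold changes (horizontal axis, HA-TAZ over control, with standard errors of the limma fit) of the 7 tested members in 3 fits: scaled TPM, TPM as deposited, and scaled TPM of protein-coding transcripts only. Dashed lines are the median of all genes in each fit, at −0.03, −0.27 and 0.13. BACH2 is left of the median in all 3, and SPIB moves from 0.07 to 0.50 when only protein-coding transcripts are summed.

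Total RNA contains incompletely spliced and non-coding transcripts, so the share of each member's TPM in transcripts annotated as protein-coding was computed per library. This share does not depend on the scaling between libraries. For SPIB it was 75.2, 65.7 and 65.6% in HA-TAZ libraries and 53.2, 46.2 and 48.8% in controls. For BACH2 it was 49.5, 51.1 and 53.9% against 43.8, 40.3 and 45.4%. For IRF4 it was 61.7, 62.0 and 65.1% against 53.1, 56.1 and 57.7%. In these 3 members each HA-TAZ library was above each control, by 19.5, 8.36 and 7.28 percentage points between the means (exact two-sided permutation p = 0.1 each). Such a rise without overlap was found for 25.3%, and any separation for 29%, of 8932 genes with shares between 5 and 95%, whose median difference was 2.81 points with quartiles of −0.26 and 6.20. PRDM1, XBP1, POU2AF1 and POU2F2 overlapped, with differences of 1.25, 1.43, 0.497 and 1.02 points.

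Counting protein-coding transcripts only, the fit called SPIB higher at 0.50 (SE 0.09; limma with Benjamini-Hochberg, adjusted p = 0.00725), POU2AF1 higher at 0.26 (SE 0.06; 0.0190) and BACH2 lower at −0.37 (SE 0.07; 0.00828). This fit was added after the data had been seen. It called 32.7% of 10527 genes, 28.6% as higher and 4.11% as lower, and its median over all genes was 0.13. In it SPIB was at 15.0, 13.4 and 12.1 scaled TPM with HA-TAZ, and at 9.29, 8.58 and 9.81 in controls. SPIB-205, the longest SPIB coding form at 262 codons, overlapped between the groups in scaled TPM. Tested as a single transcript, its log2 fold change was 0.12 (SE 0.11; limma with Benjamini-Hochberg, adjusted p = 0.536). SPIB-201 holds 177 codons and SPIB-207 holds 137. In the fit over protein-coding transcripts IRF4 changed sign, to 0.05 (limma with Benjamini-Hochberg, adjusted p = 0.555). IRF4 outside protein-coding transcripts was at 76.0, 74.8 and 61.4 scaled TPM with HA-TAZ, and at 104.6, 93.4 and 80.1 in controls, all lower. Its non-coding transcript IRF4-202 was at 36.7, 42.9 and 34.1 TPM against 76.9, 60.5 and 55.5 TPM, and its q-value was 0.00684 per the authors' deposited table. In scaled TPM the log2 fold change of IRF4-202 was −0.45 and not called (SE 0.10; limma with Benjamini-Hochberg, adjusted p = 0.0909), and it was called when only transcripts with a mean of at least 5 TPM were tested (0.0485). The coding transcript IRF4-201 had a log2 fold change of 0.05 (limma with Benjamini-Hochberg, adjusted p = 0.698), and the authors' deposited table lists its q-value as 0.602.

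**Figure D3:**
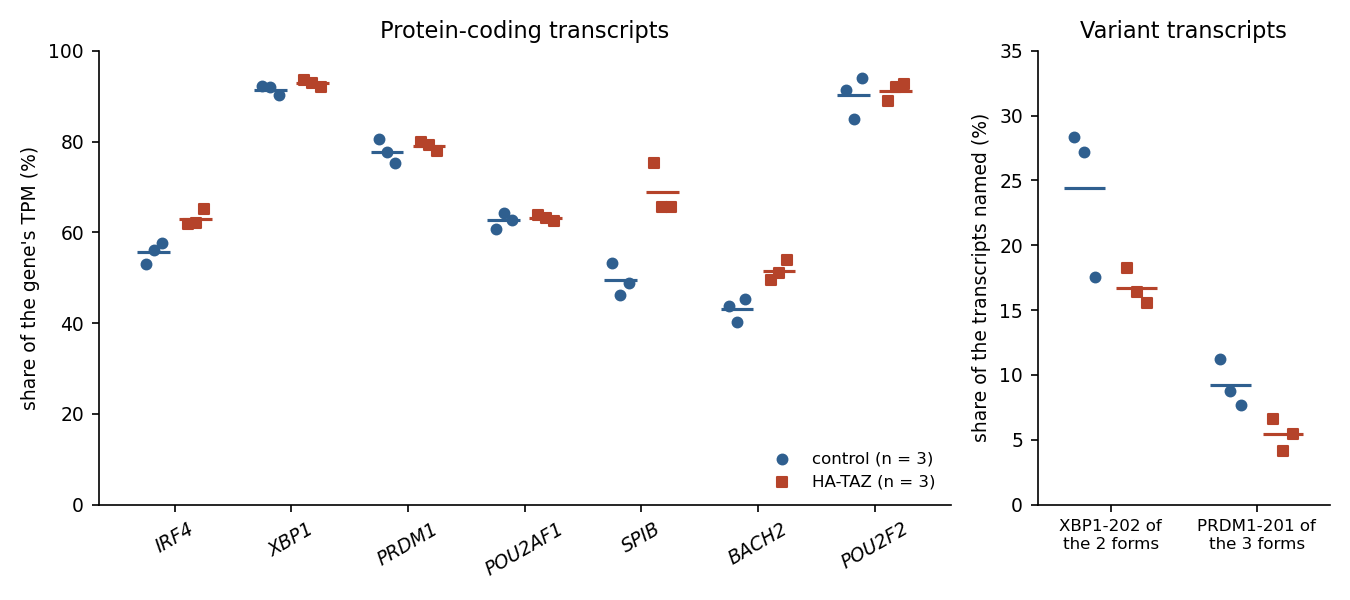
Left, share of each tested member's TPM (vertical axis, %) in protein-coding transcripts. Right, share (%) of XBP1-202 in the 2 XBP1 forms and of PRDM1-201 in the 3 PRDM1 forms named. Circles are control libraries, squares HA-TAZ libraries and lines group means. The groups separate for SPIB, BACH2, IRF4 and PRDM1-201, and control c of XBP1-202, at 17.6%, lies among the HA-TAZ libraries.

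Over all members, 74 of 103 transcripts were above 0 in some library and 30 had a mean of at least 1 TPM. Limma called 0 of these 30, with 9 at an unadjusted p-value under 0.05. Over all 57448 transcripts tested, 0.534% were called and 24.1% had an unadjusted p-value under 0.05. Statistics for 50 member transcripts stand in the authors' deposited table, and 6 of them had q under 0.05, against 5.68% of all its transcripts. The effects of XBP1-201, POU2AF1-201, SPIB-201 and SPIB-207 in the authors' deposited table were positive, and those of IRF4-202 and BACH2-210 negative. With q under 0.01 the authors' deposited table keeps 5 of these, all but BACH2-210, against 3.05% of all its transcripts. Among the 5, SPIB-207 had a geometric mean of 4.18 estimated counts, which the controls at 0 lower.

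Ratios between members within a library are free of the scaling as well. PRDM1 exceeded its repressor BCL6 by 189, 134 and 167 times in HA-TAZ libraries and by 594, 297 and 258 times in controls. Every HA-TAZ library was below every control, with a difference of −1.14 on the log2 scale (exact two-sided permutation p = 0.1, 0.3 after Benjamini-Hochberg adjustment over 3 ratios), and the low counts of BCL6 apply to this ratio. IRF4 exceeded PRDM1 by 2.04, 2.02 and 1.93 times against 2.31, 2.16 and 2.00 times. XBP1 exceeded POU2AF1 by 3.26, 3.10 and 3.28 times against 3.25, 3.85 and 3.99 times. Both of the latter overlapped between the groups (exact two-sided permutation p = 0.3 each, 0.3 adjusted).

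Around the members, genes of the same programmes moved in both directions. Among 20 plasma cell genes, 18 were tested, 3 were called higher and 2 lower, and the median was 0.02 against −0.03 for all genes, of which 4.67% were called higher and 2.63% lower. With TPM as deposited, where the median of all genes was −0.27, the plasma cell list had 2 called higher, 8 lower and a median of −0.27. ELL2, an elongation factor that promotes secreted immunoglobulin mRNA, rose by 0.84 on the log2 scale (SE 0.07; limma with Benjamini-Hochberg, adjusted p = 0.00789). The surface receptor SLAMF7 rose by 0.95 (SE 0.10; limma with Benjamini-Hochberg, adjusted p = 0.0128) and the kinase PIM2 by 0.49 (SE 0.05; 0.00944), and PIM2 is given by the more abundant of its 2 gene IDs. The ectoenzyme CD38 fell by 0.61 on the log2 scale (SE 0.08; limma with Benjamini-Hochberg, adjusted p = 0.0226) and TXNDC5, a protein disulfide isomerase, by 0.33 (SE 0.05; 0.0322). JCHAIN, listed as IGJ, which joins polymeric antibodies and was the highest of the list at 2457 ± 199 and 3792 ± 254 TPM (SD, n = 3 each), had a log2 fold change of −0.33 and SUB1 of −0.10, and neither was called (limma with Benjamini-Hochberg, adjusted p = 0.0654 and 0.384). Calls were lost without 1 library for each of the 5: for ELL2 without HA-TAZ 1, for SLAMF7 without HA-TAZ 1 or control b, for PIM2 without HA-TAZ 1, HA-TAZ 2 or control b, and for CD38 and TXNDC5 without any library but control a. The highest adjusted p-values in those fits were 0.0541, 0.0650, 0.0589, 0.0881 and 0.115 (limma, Benjamini-Hochberg). PIM2 was not called with TPM as deposited (0.166).

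Of 30 genes of the XBP1 pathway and the unfolded protein response, all were tested, 1 was called higher and 1 lower, with a median of 0.04, against 4.67% and 2.63% of all genes. On the deposited scale 0 were called higher and 4 lower, and the median was −0.25 (limma; 11 had an unadjusted p-value under 0.05 in scaled TPM). ERN1, the gene of the enzyme that splices XBP1, was at 56.8 ± 4.33 TPM with HA-TAZ and at 88.9 ± 8.51 TPM without (SD, n = 3 each) and fell by 0.34 on the log2 scale (SE 0.06; limma with Benjamini-Hochberg, adjusted p = 0.0356). The chaperone HSP90B1 rose by 0.31 (SE 0.04; limma with Benjamini-Hochberg, adjusted p = 0.0239), but by 0.01 with TPM as deposited (0.930). Both calls were lost in each of the 6 fits without 1 library, with adjusted p-values from 0.0574 to 0.125 for ERN1 and from 0.0536 to 0.0970 for HSP90B1 (limma, Benjamini-Hochberg). The lectin chaperones CALR and CANX, the most abundant of the list, had log2 fold changes of 0.13 and 0.04 and were not called (limma with Benjamini-Hochberg, adjusted p = 0.166 and 0.761).

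Of 22 other transcription factors and regulators of B and germinal centre cells, 18 were tested, 2 were called higher and 1 lower, with a median of 0.12. In 13 of the 18 the unadjusted p-value was under 0.05, against 30.7% of all genes. With TPM as deposited 2 were called higher and 4 lower, and the median was −0.16. CIITA, the master regulator of MHC class II, which PRDM1 represses in plasma cells, was at 9.65 ± 0.273 TPM with HA-TAZ and at 6.23 ± 0.809 TPM without (SD, n = 3 each) and rose by 0.83 on the log2 scale (SE 0.08; limma with Benjamini-Hochberg, adjusted p = 0.00920). It was not called without HA-TAZ 1 (0.0516). RUNX3, a Runt family factor, rose by 0.55 and MEF2C, a factor of B cell proliferation, fell by 0.25 (SE 0.09 and 0.05; limma with Benjamini-Hochberg, adjusted p = 0.0308 and 0.0394), and neither was called in any fit without 1 library (0.0530 to 0.102 and 0.0680 to 0.139). TCF3 and IKZF3 had log2 fold changes of 0.23 and 0.22 and were not called (limma with Benjamini-Hochberg, adjusted p = 0.0674 and 0.0698). Of 16 receptor and surface genes of B cells, 11 were under 1 TPM in every library, among them MS4A1, CD79A and CD79B, and 4 were tested. Limma called 0 of the 4, with 2 at an unadjusted p-value under 0.05 and a median of −0.05. CR2, the complement receptor and the highest of the list, was at 8.44 ± 0.168 and 9.07 ± 0.681 TPM (SD, n = 3 each). In scaled TPM the order turned, with 9.31 ± 0.354 against 8.11 ± 0.161, higher without overlap. BLNK, an adaptor of the B cell receptor given by the more abundant of its 2 gene IDs, was at 3.09 ± 0.681 and 3.56 ± 0.313 TPM. The log2 fold changes were 0.18 (SE 0.06) for CR2 and 0.07 (SE 0.17) for BLNK, not called (limma with Benjamini-Hochberg, adjusted p = 0.118 and 0.815).

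Of 14 close relatives of the members, 6 were tested, with 1 called higher and 0 lower. An unadjusted p-value under 0.05 (limma) was found for 4 of the 6, against 30.7% of all genes. The median was 0.19 in scaled TPM and −0.08 with TPM as deposited, where 0 were called higher and 1 lower. PRDM2 rose by 0.50 (SE 0.05; limma with Benjamini-Hochberg, adjusted p = 0.0112), was not called without HA-TAZ 1, 2 or 3 (up to 0.0606) and had a log2 fold change of 0.20 with TPM as deposited (0.158). BACH1, the ubiquitous relative of BACH2, had a log2 fold change of 0.20 and POU2F1 (Oct-1) of −0.24, and neither was called (limma with Benjamini-Hochberg, adjusted p = 0.122 each). The 20 co-repressors and partners of BCL6, BACH2 and PRDM1 were all tested, with 2 called higher, 0 lower, 7 at an unadjusted p-value under 0.05 and a median of 0.10. Over all genes 7.29% were called and 30.7% had an unadjusted p-value under 0.05. On the deposited scale the co-repressor list turned to 0 called higher and 3 lower, with a median of −0.19. MAFG, a small Maf protein that pairs with BACH factors on DNA, rose by 0.49, and the histone demethylase KDM1A (LSD1) by 0.38 (SE 0.05 and 0.06; limma with Benjamini-Hochberg, adjusted p = 0.0114 and 0.0314). MAFG lost its call without HA-TAZ 1, 2 or 3 (up to 0.0617) and KDM1A without any library (0.0531 to 0.115), and neither was called with TPM as deposited (0.0986 and 0.383). The co-repressor genes HDAC2 and NCOR1 had log2 fold changes of 0.27 and −0.06 and were not called (limma with Benjamini-Hochberg, adjusted p = 0.0556 and 0.305).

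**Figure D4:**
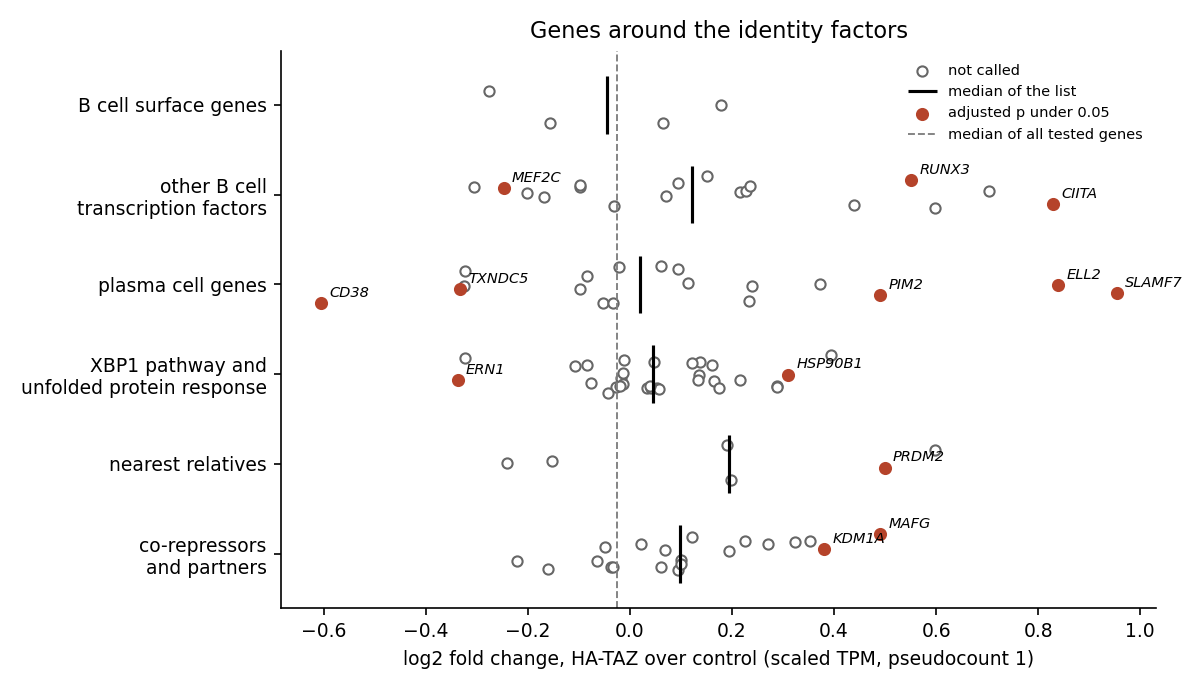
Log2 fold changes (horizontal axis, HA-TAZ over control, scaled TPM with a pseudocount of 1) of the tested genes in 6 lists around the members. Filled points were called by limma (adjusted p under 0.05), open points were not, black bars are list medians and the dashed line is the median of all tested genes. Called genes lie on both sides, from CD38 at −0.61 to SLAMF7 at 0.95.

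RefSeq promoter windows, from 250 bases before a start to 50 after it, were found for 9 of the 10 members and gave 12 windows. The TEAD motif core CATTCC, through which TAZ is recruited to DNA by TEAD factors, was in 0 of the 12 on either strand, and in 14.0% of all 35116 windows. The octamer ATGCAAAT (1.77% of all windows), the interferon response core (GAAA, any 2 bases, GAAA; 3.57%) and the unfolded protein response core TGACGTGG (0.729%) were in none of the 12 either. The Ets-IRF motif (GGAA, any 2 bases, GAAA) was in the EBF1 window, against 2.82% of all windows. The NF-kB motif was in windows of IRF4, PRDM1 and XBP1, against 25.6% of all windows. A match is a stretch of letters and no measured site, and sites outside these windows were not searched.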

How the data were processed

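Total RNA of 6 KMS27 libraries, 3 per group, was depleted of ribosomal RNA and sequenced per the labels' protocols. Per the submitters' processing notes, kallisto 0.46.0, sleuth 0.30.0 and GRCh37 were used. The annotation release is not given in the sources used here. The authors deposited TPM for 215170 transcripts and a table of sleuth results with p-values and q-values. Its effects and means are on a natural log scale per the file headers and the values. Transcript names, types and coordinates came from GENCODE release 29 (GRCh38), which held 102 of the 103 member transcripts, in part in other versions, and promoters from RefSeq (GRCh38.p14).

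TPM was summed per gene ID and divided by median-of-ratios factors over 21512 genes. Genes or transcripts with a mean TPM of at least 1 were tested with limma 3.58.1 (intensity trend, two-sided) on log2(scaled TPM + 1) in R 4.3.3, with Benjamini-Hochberg adjustment over all tested, threshold 0.05. The script was tested on simulated data. Single values were compared by exact permutation. Other steps ran in pandas 2.3.3 and numpy 2.4.6 under Python 3.11.15, with figures from matplotlib 3.10.9. The members, the lists and the tests were chosen with earlier results of these data known. All members are named. From each list other than the markers of other cell types, which are given by their sums, up to 3 called genes per direction with the smallest adjusted p-values and the 2 most abundant uncalled genes are named, and for a called member the 2 genes of highest correlation. Other genes are named as examples chosen after their values were seen. The alternatives were TPM as deposited, factors from protein-coding genes, no filter, a mean TPM of at least 5, a pseudocount of 0.1, no trend, each library left out and, added after seeing the data, protein-coding transcripts only.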

Additional observations from a re-analysis of the deposited data

How the results depend on the processing

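No paired analysis was possible because the scr columns match no label, so their numbers belong to no known sample, and no label ties a number to a shared batch or day. A fit with the replicate number as a block was therefore not run. The 1652 called genes became 3329 with TPM as deposited, 691 without a filter, 758 without the intensity trend and 3443 over protein-coding transcripts only, and 118 to 470 when 1 library was left out. The 1 called member became 3 with TPM as deposited (BACH2, POU2F2 and XBP1), 3 over protein-coding transcripts only, and 0 to 2 without 1 library. BACH2 was called under all 8 settings that keep the 6 libraries. Signs turned with TPM as deposited for XBP1 (−0.24), POU2AF1 (−0.041), SPIB (−0.22), IRF4-201 (−0.25), PRDM1-203 (−0.29), XBP1-201 (−0.057) and POU2AF1-201 (−0.032). They turned with factors from protein-coding genes for XBP1 (−0.013), SPIB (−0.0053), IRF4-201 (−0.026) and PRDM1-203 (−0.071), and over protein-coding transcripts only for IRF4 (0.049) and PRDM1 (0.0075). Without 1 library, log2 fold changes ran from −0.029 to 0.021 for PRDM1 and from −0.018 to 0.042 for PRDM1-203. In such fits the differences in coding share ran from −0.0483 to 2.63 points for PRDM1, −0.432 to 1.35 for POU2AF1 and −1.55 to 2.97 for POU2F2, and those in the share of a transcript from −0.101 to 1.32 for PRDM1-203 and −0.575 to 1.20 for POU2AF1-201. Fits without 1 library hold fewer samples. For the other changes the cause was not tested. TPM gives no depth per library, and the few estimated counts behind BCL6, EBF1 and PAX5 limit their precision.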
